A study of Mus musculus with 6 samples.

Results

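Interferon response and antigen presentation genes were followed as a set of 37 genes, chosen by name from the 23038 genes listed for each library. The set held the receptor of type I interferon, sensors of foreign RNA, the transcription factors of the pathway, antiviral proteins that interferon induces, and the machinery that loads peptides on class I molecules. Values of these libraries, both the contrast between the groups and the differences between libraries, were known when the set was chosen, so the members' values are given as a description and no test of them is offered as evidence. All 37 names were found in the data (Ddx58 is the older symbol of Rigi, the RNA sensor RIG-I).

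NSC34 is a mouse hybrid cell line made by fusing neuroblastoma cells with embryonic spinal cord motor neurons, and it is used as a motor neuron-like culture. Polyadenylated RNA was sequenced from 3 libraries of cells given a control siRNA (siNC) and 3 libraries of cells given siRNA against Qk (siQk), which encodes the RNA-binding protein Quaking. The cells were grown in medium with fetal calf serum, no allele was altered, and the labels describe each group as biological replicates. Different siRNAs against Qk were used, and the labels do not say which library received which. Both groups received an siRNA, and no untransfected library was analysed here.

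Type I interferons bind a receptor of Ifnar1 and Ifnar2 chains, which activates Stat2; a complex that holds Stat2 and Irf9 binds the interferon-stimulated response element in the promoters of the genes it switches on. The induced proteins block viral RNA and virus assembly, and interferon also raises class I antigen presentation, in which Tap1 and Tap2 carry peptides into the endoplasmic reticulum for loading on class I heavy chains paired with B2m. Double-stranded RNA, siRNA included, is able to start the response through cytoplasmic sensors, and neurons and neuroblastoma cells are known for low class I levels.

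The response element was searched for in the promoters of the members, because the complex of Stat2 and Irf9 binds it in the genes it switches on. Not every member is known to be such a gene. RefSeq promoters of the GRCm38.p6 build, each of 300 bases, were found for 30 of the 37 members. The motif searched was GAAA followed by any 2 bases and a second GAAA, on both strands, so that a pair of TTTC runs with 2 bases between them marks it on the opposite strand. It was found in 14 of these 30 members (46.7%), against 3.44% of all 32851 promoters of that length and 3.99% of 27025 genes when every promoter of a gene was searched. The members were chosen by name as genes of this pathway, so the difference between these shares is not read as a result. The 14 members were Isg15, Ifit1, Ifit3, Oas1a, Oas3, Rsad2, Bst2, Ddx58, Ifih1, Eif2ak2, Stat2, Irf2, Cxcl10 and B2m. By role, the motif was found in 6 of 10 antiviral effectors, 3 of 4 RNA-sensing genes, 2 of 6 transcription factors, 1 of 4 class I genes and neither receptor chain. Oas2, Mx1, Mx2, Usp18, Parp9, Parp14 and Tap2 had no entry in the promoter table.

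Among the motif-bearing members that passed the abundance filter described further on, sequence is shown for the 4 whose log2 CPM ranged most widely over the 6 libraries, so that the letters can be read beside the values given further on. Each is written 5′ to 3′ on the strand of its gene, from the GRCm38.p6 build, and the motif is in capitals. For Isg15, Ifit1 and Cxcl10 the 250 bases before the gene start are given. They lie at chr4:156200819-156201068 on the minus strand, chr19:34640639-34640888 on the plus strand and chr5:92348890-92349139 on the minus strand. For Ifih1 the motif lies after the gene start, and 30 bases around it are given, at chr2:62646206-62646235 on the minus strand.
Isg15: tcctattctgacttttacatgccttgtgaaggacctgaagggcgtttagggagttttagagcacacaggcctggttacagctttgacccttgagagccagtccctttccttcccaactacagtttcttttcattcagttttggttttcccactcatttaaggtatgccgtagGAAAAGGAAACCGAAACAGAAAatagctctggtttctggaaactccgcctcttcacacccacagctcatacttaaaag
Ifit1: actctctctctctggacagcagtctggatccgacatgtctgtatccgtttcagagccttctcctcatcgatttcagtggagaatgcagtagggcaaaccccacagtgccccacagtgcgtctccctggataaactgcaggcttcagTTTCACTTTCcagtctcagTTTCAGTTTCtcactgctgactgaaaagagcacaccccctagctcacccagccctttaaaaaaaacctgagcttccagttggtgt
Cxcl10: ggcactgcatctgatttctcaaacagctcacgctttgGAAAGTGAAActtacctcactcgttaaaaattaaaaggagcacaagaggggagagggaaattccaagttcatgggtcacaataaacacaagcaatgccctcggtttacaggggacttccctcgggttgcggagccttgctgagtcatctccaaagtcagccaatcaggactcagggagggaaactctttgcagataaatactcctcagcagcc
Ifih1: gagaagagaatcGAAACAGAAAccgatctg
In Isg15 there were 3 matches that overlapped each other, starting at positions -78, -72 and -66 relative to the gene start. Ifit1 had 2 separate matches on the opposite strand, starting at -104 and -85. Cxcl10 had 1 match, starting at -213. A match of letters is a description of these windows and does not show a bound site.

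The libraries held 43000503 to 53565950 reads each, summed over the expected counts of all genes, and siNC replicate 3 had both the lowest total and the lowest TMM scaling factor (0.956, against 0.999 to 1.02 in the other 5 libraries). Qk was at 9.67, 8.18 and 14.9 RPKM (reads per kilobase of exon, scaled to the library total) in siNC replicates 1, 2 and 3 and at 1.39, 1.71 and 1.10 RPKM in siQk replicates 1, 2 and 3. The groups did not overlap, and the log2 fold change was -2.997 (SE 0.34, adjusted p = 0.0149 by edgeR's quasi-likelihood test over all 12665 genes tested). Of 14 markers of immune cells, none passed the abundance filter of a mean log2 CPM (counts scaled to the library size) above 0. Their summed level was 2.33 to 3.04 RPKM in siNC and 1.16 to 2.46 RPKM in siQk, and Cx3cr1, C1qa and Cd3e were at 0 in every library. The summed level of 10 fibroblast and endothelial markers was 14.4 to 21.1 RPKM in siNC and 11.9 to 16.2 RPKM in siQk, with Lum at 0. The 5 of them that passed the filter were Pdgfra, Pdgfrb, Pecam1, Cdh5 and Kdr. Col1a1, Col1a2, Col3a1 and Dcn were at 0.121 RPKM or less in every library. The summed level of 10 glial markers was 9.58 to 11.2 RPKM and 7.12 to 10.9 RPKM in the same order, with Aqp4 at 0. Pdgfra, at 2.99 to 5.54 RPKM over the libraries, is on both of these lists. Of 17 neuronal and motor neuron markers, 14 passed the filter. None of these marker genes was called. Isl1, a transcription factor of motor neurons, was at 4.83, 4.75 and 4.80 RPKM in siNC and at 9.63, 7.80 and 8.33 RPKM in siQk (log2 fold change 0.82, SE 0.10). Pdgfrb, a growth factor receptor of fibroblasts and pericytes, was at 3.65, 3.11 and 5.27 RPKM in siNC and at 2.83, 0.839 and 2.46 RPKM in siQk (log2 fold change -1.01, SE 0.61). The groups did not overlap for either gene, and these were the only marker genes with an unadjusted p under 0.05 by edgeR's quasi-likelihood test. The part of other cell types in the members' levels was not tested.

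Among the members, 32 passed the abundance filter and 5 did not. None of the 32 was called changed by the quasi-likelihood test at p under 0.01 and adjusted p under 0.1, where 0.00790% of all genes tested (1 gene, Qk) were called. The edgeR exact test and likelihood-ratio test, which each called 0.0395% of all genes, and DESeq2, which called 0.150%, called none of the members either. At an unadjusted p under 0.05, 3 members stood lower in siQk (1.69% of all genes did) and 0 stood higher (1.20% of all genes did). These 3, Trim25, Ifit1 and Oasl1, were also the members whose groups did not overlap in RPKM, 3 lower and 0 higher, where 3.49% and 5.35% of all genes tested did not overlap in those directions (8.84% in either). Ifit1 passed the abundance filter through the siNC libraries, where it was higher, which favours a place among the lower genes. Because the set was chosen with this contrast known, nothing is read from these shares.

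Fitted fold changes of the members lay mostly below 0 without passing the test. They were below 0 for 24 of 32 members (75%), where 49.2% of all genes tested were below 0, and their median was -0.16 on the log2 scale beside 0.0034 for all genes. Ifit1, which passed the abundance filter through the siNC libraries, is among the 24 and enters the medians given here. Among markers of other cell types, the median was -0.24 over 5 tested fibroblast and endothelial markers (4 below 0). It was -0.16 over 4 tested glial markers (3 below 0), and Pdgfra, at 0.09, is counted in both lists. The 14 neuronal and motor neuron markers had a median of 0.16 (5 below 0). The part of any of these markers in the members' values was not tested. In bulk RNA, fewer cells that carry a transcript and less of it per cell cannot be told apart. By role, the median log2 fold change was -0.48 for the antiviral effectors, -0.23 for the RNA-sensing genes, -0.14 for the group of Isg15 and its partners, -0.11 for the transcription factors, -0.08 for the receptor chains and 0.13 for the class I genes. The sign of the class I genes turned with siNC replicate 3, without which all 5 lay below 0, from -0.22 to -0.02. Single control libraries moved the median: it was -0.03, with 16 of 31 members below 0, without siNC replicate 2, and -0.30, with 29 of 32 below 0, without siNC replicate 3.

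**Figure D1:**
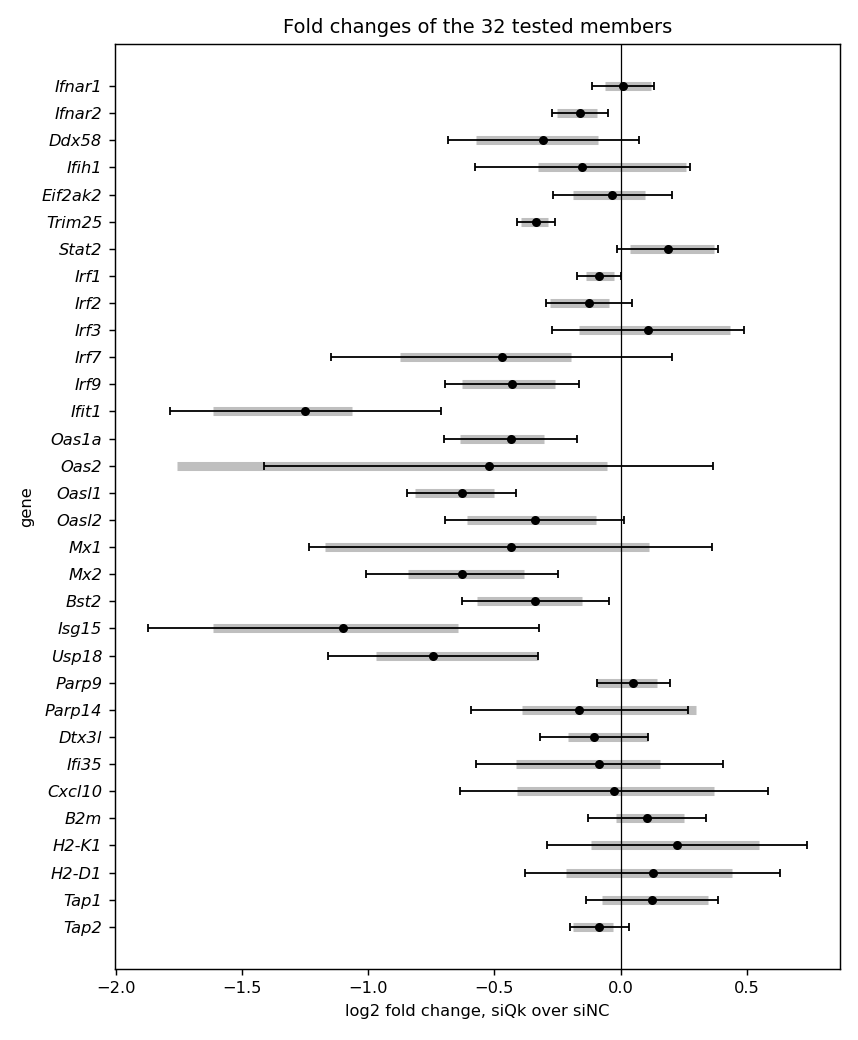
Log2 fold change of siQk over siNC for the 32 tested members (points, with bars of 1 SE), in order of role, over the range obtained when each of the 6 libraries was left out in turn (grey bands). The 8 antiviral effectors from Ifit1 to Bst2 all lie below 0, from -1.25 to -0.34, and 4 of the 5 class I genes lie above it but turn below it without siNC replicate 3. Ifit1 passed the abundance filter through the siNC libraries. Its band covers 5 of the 6 cases, since it did not pass that filter without siNC replicate 2.

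In what follows, levels are in RPKM and are given for replicates 1, 2 and 3 of each group. The receptor chains, which start the response, were among the steadiest members. Ifnar1 was at 8.97, 11.3 and 8.19 RPKM in siNC and at 10.3, 9.40 and 9.29 RPKM in siQk. Ifnar2 was at 7.97, 6.996 and 8.12 RPKM in siNC and at 6.72, 7.72 and 6.61 RPKM in siQk. The groups overlapped for both chains, and the log2 fold changes were 0.01 (SE 0.12) for Ifnar1 and -0.16 (SE 0.11) for Ifnar2. The highest library of Ifnar2 stood 1.23-fold above its lowest, the narrowest span of the tested members in RPKM, though Irf1 and Tap2 spanned less on the TMM-scaled log2 CPM. Of its exon bases, 9.5% overlap another annotated gene, Gm21970.

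Sensors of viral RNA and their partners were expressed at very different levels. Ddx58, the helicase RIG-I that recognises RNA ends, was at 3.56, 6.35 and 5.26 RPKM in siNC and at 4.16, 5.57 and 2.75 RPKM in siQk. Ifih1, the helicase MDA5 that recognises long double-stranded RNA, was at 0.178, 0.368 and 0.173 RPKM in siNC and at 0.260, 0.252 and 0.142 RPKM in siQk. Both had their highest value in siNC replicate 2 and their lowest in siQk replicate 3, and the groups overlapped. Eif2ak2, the kinase PKR that stops translation on double-stranded RNA, was at 13.2, 19.9 and 17.9 RPKM in siNC and at 19.1, 18.2 and 13.5 RPKM in siQk. Its lowest value was in siNC replicate 1, close to that of siQk replicate 3, and its log2 fold change was -0.03 (SE 0.23). Trim25, the ubiquitin ligase that activates RIG-I, was at 19.4, 20.5 and 20.7 RPKM in siNC and at 17.6, 15.7 and 15.6 RPKM in siQk. Every siQk library was below every siNC library for Trim25. Its log2 fold change of -0.34 (SE 0.07) had an unadjusted p of 0.0461 and an adjusted p of 0.999563 by edgeR's quasi-likelihood test. The fold changes of Ddx58 and Ifih1, -0.31 (SE 0.38) and -0.15 (SE 0.43), were smaller than their errors.

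Transcription factors of the pathway overlapped between the groups without exception among the 6 measured. Stat2, which carries the activation domain of the interferon-activated complex, was at 16.3, 21.3 and 12.5 RPKM in siNC and at 18.8, 20.6 and 18.3 RPKM in siQk. Irf9, its DNA-binding partner, was at 3.64, 4.08 and 2.72 RPKM in siNC and at 3.29, 1.96 and 2.60 RPKM in siQk. Both partners were highest in siNC replicate 2, but Stat2 was lowest in siNC replicate 3 and Irf9 in siQk replicate 2. Irf3, the factor that switches on interferon genes downstream of the sensors, was at 12.7, 9.30 and 5.001 RPKM in siNC and at 10.8, 8.82 and 9.78 RPKM in siQk. Irf7, itself induced by interferon and the amplifier of interferon gene transcription, was at 5.10, 5.001 and 1.28 RPKM in siNC and at 3.77, 2.29 and 2.23 RPKM in siQk. Irf3 and Irf7 shared a low value in siNC replicate 3, outside the range of the siQk libraries for each, and Irf7 spanned 3.99-fold from its lowest to its highest library. Irf1, an activator of antigen presentation genes, was at 10.3, 11.6 and 9.24 RPKM in siNC and at 9.98, 9.35 and 10.5 RPKM in siQk. Irf2, which binds the same element and can oppose Irf1, was at 11.7, 14.6 and 13.9 RPKM in siNC and at 11.6, 15.0 and 10.9 RPKM in siQk. Irf1 was among the steadiest members and Irf2 had its highest value in siQk replicate 2, where most antiviral effectors were low. The log2 fold changes of the 6 factors ran from -0.47 (SE 0.68) for Irf7 to 0.19 (SE 0.20) for Stat2.

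The 8 tested antiviral effectors all had fitted fold changes below 0, except that Mx1 was at 0.11 on the log2 scale without siNC replicate 2, and they had wide ranges within the groups. Ifit1, which binds viral RNA that lacks a host-type cap, was at 0.417, 1.14 and 0.423 RPKM in siNC and at 0.407, 0.205 and 0.230 RPKM in siQk. These levels rest on 28 to 143 reads a library, and siNC replicate 2 stood far above the other 5 libraries. The groups did not overlap, by a margin of 0.407 against 0.417 RPKM, and the log2 fold change was -1.25 (SE 0.54, unadjusted p 0.0284, adjusted p 0.999563 by edgeR's quasi-likelihood test). Ifit1 passed the abundance filter through the siNC libraries, its mean over the siQk libraries lying below the limit, and without siNC replicate 2 it did not pass and has no fitted value, so its fold change and p are given as values only. Mx1 was at 0.896, 1.61 and 0.397 RPKM in siNC and at 1.30, 0.318 and 0.547 RPKM in siQk. Mx2 was at 1.86, 2.65 and 1.39 RPKM in siNC and at 1.65, 0.832 and 1.39 RPKM in siQk. Mx1 and Mx2 encode dynamin-like GTPases that trap virus particles, are annotated by RefSeq as transcribed pseudogenes in this mouse genome, and were both highest in siNC replicate 2 and lowest in siQk replicate 2. Bst2, the tether that holds budding virus at the membrane, was at 48.2, 50.4 and 33.6 RPKM in siNC and at 45.8, 25.7 and 34.5 RPKM in siQk. Bst2 was by far the most abundant effector per length, and siQk replicate 1 lay with the upper siNC libraries.

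The oligoadenylate synthetases make the messenger that activates RNase L, which degrades RNA. Oas1a was at 10.0, 10.6 and 6.71 RPKM in siNC and at 8.59, 6.44 and 5.44 RPKM in siQk. Oas2 was at 0.397, 0.505 and 0.310 RPKM in siNC and at 0.615, 0.0686 and 0.174 RPKM in siQk. For Oas2 the siQk group held both the highest and the lowest of the 6 libraries, replicates 1 and 2, an 8.96-fold range that was the widest of the tested members and rested on 16 to 122 reads a library. The relatives Oasl1, a regulator of Irf7 translation, and Oasl2 stood closer together. Oasl1 was at 4.80, 4.64 and 2.86 RPKM in siNC and at 2.72, 2.75 and 2.59 RPKM in siQk. Oasl2 was at 4.38, 3.45 and 2.96 RPKM in siNC and at 3.86, 1.82 and 2.97 RPKM in siQk. For Oasl1 the groups did not overlap, siNC replicate 3 lying just above the highest siQk library, and the log2 fold change was -0.63 (SE 0.22, unadjusted p 0.0342, adjusted p 0.999563 by edgeR's quasi-likelihood test). The other effectors had log2 fold changes of -0.34 to -0.63, with standard errors of 0.26 to 0.89. Of the 75-base stretches in Oas1a transcripts, 47.6% also occur in its near copy Oas1g, so the Oas1a values could hold reads of either gene.

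**Figure D2:**
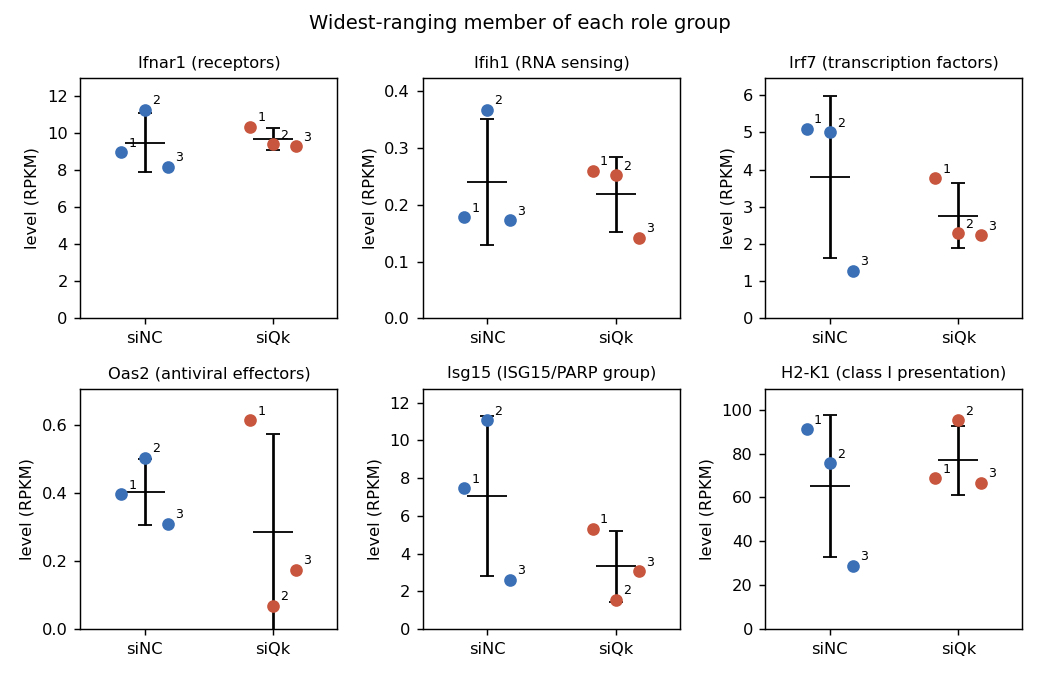
Level in RPKM (vertical axes from 0, on separate scales) of the widest-ranging tested member of each role group of more than 1 gene, by library. Points are numbered by replicate and bars give the mean ± 1 SD of 3 libraries. Isg15, Irf7 and H2-K1 are low in siNC replicate 3, and Oas2 has its highest and lowest points among the siQk libraries.

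The 5 members that did not pass the filter were all antiviral effectors. Ifit2, a relative of Ifit1, had 19 to 71 reads a library. Rsad2, the enzyme viperin that makes a chain-terminating nucleotide, had 21 to 100 reads, the most in siNC replicate 2. Oas3, the synthetase that answers to long RNA, had 11 to 50 reads. Ifi44 had 3 to 7 reads a library and Ifit3 had 1 to 7, and 41.1% of the 75-base stretches of Ifit3 also occur in Ifit3b. The groups overlapped for all 5, and their levels were at most 0.558 RPKM.

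Isg15 and the genes that work with it form the group of regulators. Isg15, a ubiquitin-like protein joined to other proteins during the response, was at 7.45, 11.1 and 2.61 RPKM in siNC and at 5.31, 1.56 and 3.07 RPKM in siQk. Usp18, the protease that removes Isg15 and restrains the receptor, was at 4.10, 7.55 and 3.10 RPKM in siNC and at 3.59, 3.16 and 2.14 RPKM in siQk. Both were highest in siNC replicate 2, and Isg15 spanned 7.11-fold between that library and siQk replicate 2. Their log2 fold changes were -1.10 (SE 0.77) for Isg15 and -0.74 (SE 0.42) for Usp18, and the groups overlapped. Without siNC replicate 2 the fold change was -0.64 for Isg15 and -0.33 for Usp18. That of Isg15 was -1.62 without siQk replicate 1. In the Isg15 promoter, shown above, the motif occurs 3 times.

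Parp9, an ADP-ribosyltransferase partner of Dtx3l, was at 4.92, 5.56 and 4.91 RPKM in siNC and at 6.42, 4.67 and 5.11 RPKM in siQk. Dtx3l, a ubiquitin ligase, was at 3.85, 5.86 and 3.64 RPKM in siNC and at 4.38, 3.72 and 4.45 RPKM in siQk. Parp9 and Dtx3l are transcribed from opposite strands with overlapping ends, at chr16:35938470-35972621 and chr16:35926515-35939027 (RefSeq, GRCm38.p6). They share 9.4% of the exon bases of Parp9 and 8.0% of those of Dtx3l, and the library kit keeps no strand, so reads there cannot be told apart. Parp14, another interferon-induced ADP-ribosyltransferase, was at 1.16, 2.78 and 1.32 RPKM in siNC and at 1.68, 1.90 and 1.16 RPKM in siQk. Ifi35, an interferon-induced leucine zipper protein, was at 20.5, 22.99 and 7.99 RPKM in siNC and at 20.5, 14.05 and 14.4 RPKM in siQk. Parp14 stood out in siNC replicate 2 and Ifi35 was low in siNC replicate 3, and all 4 genes overlapped between the groups with log2 fold changes of -0.16 to 0.05.

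Cxcl10, a chemokine that attracts T cells and is strongly induced by interferons, was at 10.98, 14.8 and 3.54 RPKM in siNC and at 11.8, 8.16 and 8.99 RPKM in siQk. The siNC group held both the highest and the lowest library, and the log2 fold change was -0.03 (SE 0.61). Its RPKM was computed by the authors over an exon length of 263 bases, where the GENCODE exons of the gene add up to 2252 bases, so its level cannot be set beside those of the other members.

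Class I antigen presentation genes ran from a few RPKM for Tap1 to the highest levels of the members for B2m, and all 5 were lowest in siNC replicate 3, as were Irf3, Irf7, Ifi35 and Cxcl10 above. B2m, the light chain, was at 247, 209 and 162 RPKM in siNC and at 243, 177 and 255 RPKM in siQk. H2-K1 was at 91.1, 75.5 and 28.7 RPKM in siNC and at 68.8, 95.1 and 66.6 RPKM in siQk. H2-D1 was at 115, 97.0 and 36.5 RPKM in siNC and at 85.0, 107 and 81.8 RPKM in siQk. For these heavy chain genes siNC replicate 3 lay well below the other 5 libraries, and siQk replicate 2, the lowest library for 6 of the 8 tested effectors, was among the highest. Tap1, a chain of the peptide transporter, was at 2.88, 3.77 and 1.93 RPKM in siNC and at 3.15, 3.42 and 2.89 RPKM in siQk. Tap2, the other chain, was at 26.7, 27.4 and 20.2 RPKM in siNC and at 23.8, 23.3 and 24.04 RPKM in siQk. The groups overlapped for both chains of the transporter, and the log2 fold changes of the 5 class I genes ran from -0.08 (SE 0.12) for Tap2 to 0.22 (SE 0.52) for H2-K1. The exon length behind the RPKM of H2-K1 was 746 bases against 2938 GENCODE exon bases, so its level, like that of Cxcl10, cannot be set beside those of other genes. In addition, 18.5% of the exon bases of Tap2 overlap other annotated genes. Small shares of the 75-base stretches, 3.1% for H2-K1 and 5.4% for H2-D1, also occur in other genes, most often in H2-Q10 and H2-Q1 respectively.

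**Figure D3:**
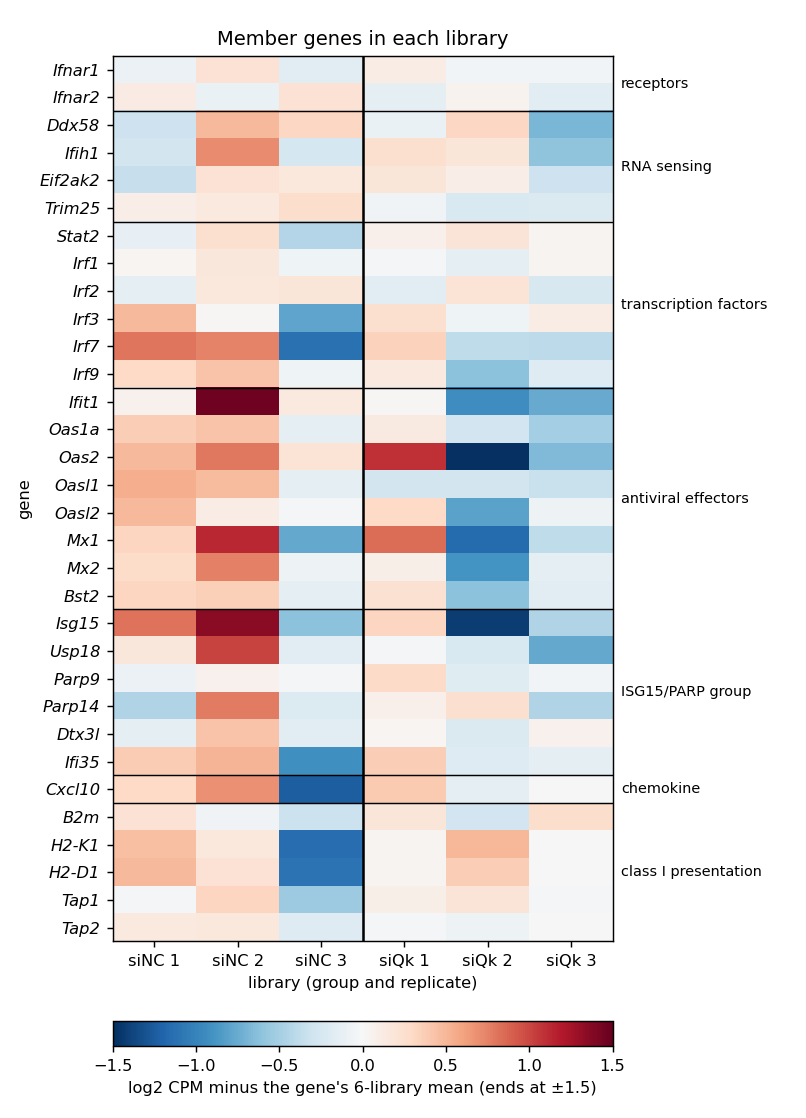
Deviation of each tested member (rows, in order of role) from its own mean over the 6 libraries (columns), in log2 CPM, red above and blue below the mean. Red gathers in siNC replicate 2, blue in siQk replicate 2 for the antiviral effectors and in siNC replicate 3 for Irf7, Cxcl10, H2-K1 and H2-D1.

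Libraries of the same group differed widely in these genes. Different siRNAs against Qk were used, so here and below differences among siQk libraries cannot be told apart from differences between siRNAs. By RPKM, siNC replicate 2 was the highest library for 20 of 32 members (62.5%), where it was highest for 18.4% of all genes tested, and it was the lowest for 0 members. The lowest library was siNC replicate 3 for 13 members (40.6%, against 30.9% of all genes tested), siQk replicate 2 for 9 (28.1% against 21.8%) and siQk replicate 3 for 8 (25% against 7.35%). With TMM-scaled values, siNC replicate 2 was again highest for 20 members, and the lowest library was siQk replicate 2 for 12, siNC replicate 3 for 11 and siQk replicate 3 for 7. Across the 6 libraries 17 of 32 members (53.1%) spanned more than 2-fold in RPKM, against 27.8% of all genes tested, and the median span was 2.20-fold against 1.65-fold.

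Spread within the groups was set beside that of all genes and of the genes between the least and the most abundant member. The pooled SD around the group means had a median of 0.40 log2 CPM over the members, 0.26 over all genes tested and 0.27 over the 10942 genes in the members' abundance range. Oas2, Mx1, Isg15 and Irf7 had the largest SDs, from 1.09 down to 0.83, and Trim25 the smallest, 0.09. Oas2 had 16 to 122 reads a library. H2-K1, at 922 to 3801 reads, and H2-D1, at 2666 to 9964 reads, had SDs of 0.63 and 0.62. The part of counting error in these SDs was not tested.

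**Figure D4:**
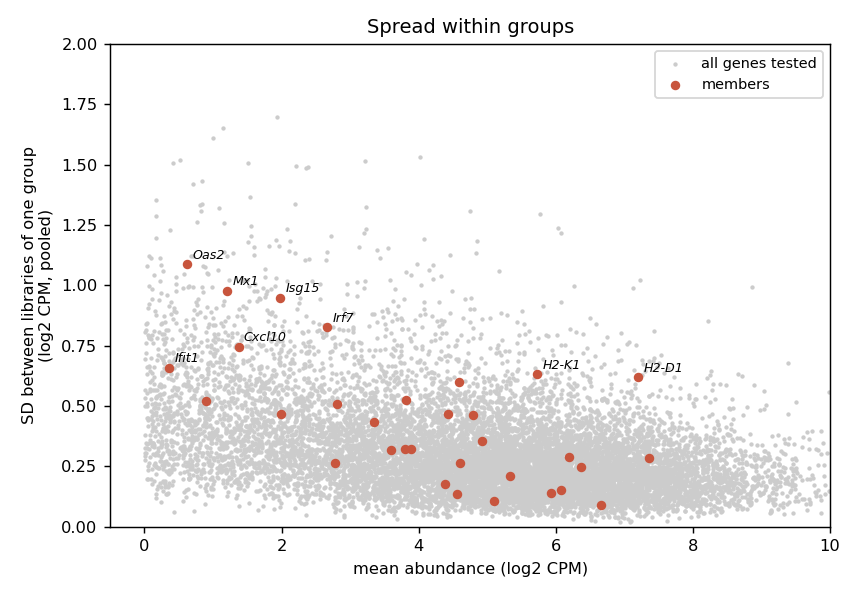
Pooled SD between libraries of a group (vertical axis, log2 CPM) against mean abundance (horizontal axis, log2 CPM) for all genes tested (grey) and the 32 tested members (red), with members above an SD of 0.6 named. The axes leave out 50 genes, none of them a member. Several members of middle and high abundance, H2-K1 and H2-D1 among them, lie in the upper part of the grey cloud.

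The role groups did not follow the libraries in the same way. The antiviral effectors had median deviations from their 6-library means of 0.35, 0.61 and -0.10 log2 CPM in siNC and of 0.19, -0.85 and -0.36 log2 CPM in siQk. The class I genes had medians of 0.22, 0.16 and -0.54 log2 CPM in siNC and of 0.04, 0.19 and -0.01 log2 CPM in siQk. For the RNA-sensing genes the medians were -0.30, 0.36 and 0.21 log2 CPM in siNC and 0.06, 0.14 and -0.46 log2 CPM in siQk. The effectors were thus lowest in siQk replicate 2, the class I genes in siNC replicate 3 and the RNA-sensing genes in siQk replicate 3. The median of all genes lay between -0.0032 and 0.012 log2 CPM in every library. TMM scaling brings that median close to 0, so it is no measure of how far other gene sets move. Marker lists also departed from their means in these libraries. The 5 tested fibroblast and endothelial markers had medians of 0.44, 0.27 and 0.01 log2 CPM in siNC and of 0.08, -0.23 and -0.08 log2 CPM in siQk, highest in siNC replicates 1 and 2 and lowest in siQk replicate 2 like the effectors. The 4 tested glial markers had a median of -0.67 log2 CPM in siQk replicate 2 and the 14 tested neuronal and motor neuron markers a median of -0.29 log2 CPM in siNC replicate 3, and their part in the members' values was not tested.

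**Figure D5:**
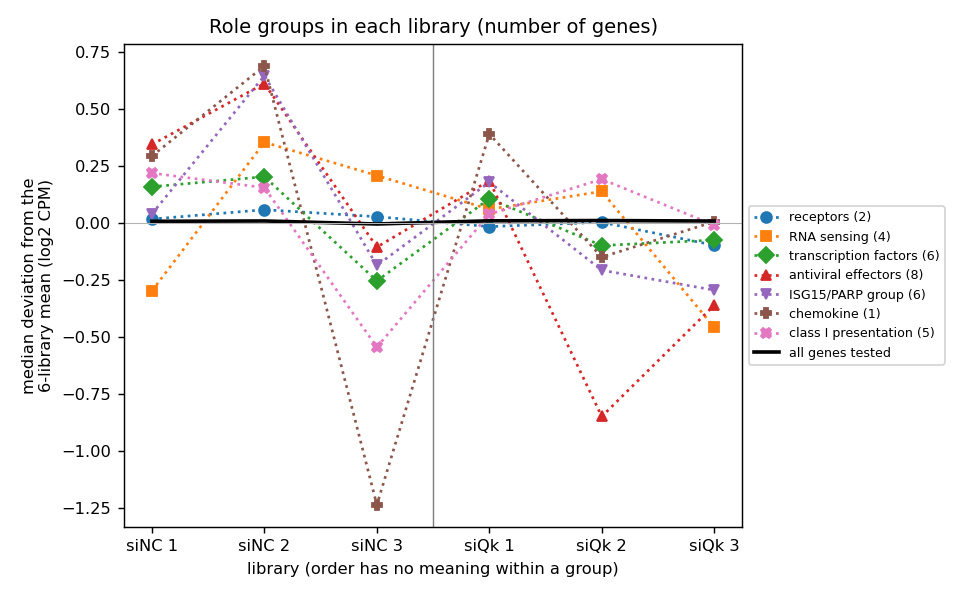
Median over the genes of each role group of the deviation from the gene's 6-library mean (log2 CPM), for each library. All genes tested are the black line, which TMM scaling brings close to 0. The effectors are at -0.85 in siQk replicate 2 and the class I genes at -0.54 in siNC replicate 3, while the receptor chains stay between -0.10 and 0.06.

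Deviations of the members within the groups were compared pair by pair. The deviations of each pair of members from their group means had a median Pearson correlation of 0.50 over the 6 libraries, and 393 of 496 pairs were above 0, where the median over all pairs of genes tested was -0.00083. For the antiviral effectors the median was 0.72, with 28 of 28 pairs above 0, and for the class I genes it was 0.83, with 10 of 10 pairs above 0. Between an effector and a class I gene it was 0.45, with 37 of 40 pairs above 0. Cxcl10, Isg15 and Ifi35 had the highest median correlation with the other members, each 0.74, and Ifnar2 (-0.59), Irf2 (-0.33) and Ddx58 (-0.10) the lowest. These correlations describe 6 points that leave 4 degrees of freedom, and the genes of a pair share the library, its depth and its scaling. The pairs reuse the same genes, and the share of pairs above 0 was not computed for all genes. Because the set was chosen with the differences between libraries known, nothing is read from these values.

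Other genes of the pathway, taken from lists that hold no member, were read from the same fit. Of 170 such genes in the data 95 were tested and 0 were called by any of the 4 tests. At an unadjusted p under 0.05 by edgeR's quasi-likelihood test, 3 were lower in siQk and 2 were higher, where 1.69% and 1.20% of all genes tested were. The groups did not overlap in RPKM for 6 of the 95 genes in the lower and 4 in the higher direction, beside 3.49% and 5.35% of all genes tested. The 5 genes under that p belonged to the list of other interferon-stimulated genes. Irgm2, a GTPase of the immunity-related family, was at 5.56, 6.89 and 6.36 RPKM in siNC and at 4.53, 3.36 and 3.78 RPKM in siQk. Slfn8 was at 0.348, 0.653 and 0.533 RPKM in siNC and at 0.853, 1.02 and 0.930 RPKM in siQk. Slfn9, like Slfn8 a member of the Schlafen family, was at 1.22, 1.95 and 1.44 RPKM in siNC and at 2.06, 2.94 and 2.52 RPKM in siQk. The groups did not overlap for these 3 genes, with log2 fold changes of -0.71 (SE 0.16) for Irgm2, 0.85 (SE 0.27) for Slfn8 and 0.69 (SE 0.24) for Slfn9. Lgals3bp and Tor3a, named because they complete the count, had log2 fold changes of -0.51 (SE 0.24) and -0.40 (SE 0.11).

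By list, the median log2 fold change was -0.10 over 46 other interferon-stimulated genes (27 below 0), -0.14 over 12 sensors and adaptors (10 below 0), 0.04 over 13 genes of receptor signalling (6 below 0) and 0.08 over 24 antigen presentation genes (10 below 0). The 15 interferon ligand genes listed were not tested: 11 had 0 reads in every library, which allows up to 3 reads a library for counting error only, and the highest count of any of them was 16 reads.

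The library pattern of the class I members was also seen in part of the other antigen presentation genes. Their median deviation was 0.12, 0.11 and -0.52 log2 CPM in siNC and 0.12, 0.10 and -0.08 log2 CPM in siQk. By RPKM, siNC replicate 3 was the lowest library for 14 of the 24 (58.3%), where it was lowest for 30.9% of all genes tested. It was the highest library for 3 of the 24, and siQk replicate 2 was the lowest for 3. The other interferon-stimulated genes had medians of 0.06, 0.15 and -0.17 log2 CPM in siNC and 0.09, -0.09 and -0.06 log2 CPM in siQk, a narrower range than that of the member effectors. Over all 95 genes, siNC replicate 2 was the highest library by RPKM for 34 (35.8%), where it was highest for 18.4% of all genes tested. These other genes come from the same 6 libraries as the members.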

How the data were processed

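RNA from NSC34 cells was made into poly-A selected TruSeq v2 libraries, which keep no strand. Per the study's methods, the authors aligned the reads with OLego and counted them with Quantas; the submitters' processing notes name the mm10 build. The authors deposited, for each library, expected counts per gene and RPKM, computed from those counts, an exon length and the library total. Libraries held 43000503 to 53565950 counts, and groups were taken from the labels. The member genes, the lists and the tests were chosen with earlier results of these data known.

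Expected counts, of which 21.8 to 22.9% were not whole, were rounded. Genes with a mean log2 CPM above 0 were kept (12665 of 23038, holding 99.9% of the counts). All 6 libraries entered one fit without covariates, with TMM scaling and edgeR's quasi-likelihood test (version 4.0.16, under R 4.3.3), and genes were called at p under 0.01 and Benjamini-Hochberg adjusted p under 0.1. Log2 CPM used a prior count of 2; SE is that of the difference of group means of log2 CPM. All members were named. Of the other lists, up to 3 genes each with the smallest unadjusted p under 0.05 were named, and Lgals3bp and Tor3a after their values were seen. Markers at 0 or near it, and the fibroblast and endothelial markers that passed the filter, were also named after their values were seen. Shared 75-base stretches and exon overlaps were computed from GENCODE M21, and motifs from RefSeq promoters running from 250 bases before to 50 bases after the start. Alternatives covered scaling, filtering, tests (edgeR's exact and likelihood-ratio tests, DESeq2 1.42.0), prior count, a replicate block and leaving out each library. The fit was tested on simulated data.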

Additional observations from a re-analysis of the deposited data

How the results depend on the processing

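No member and no other pathway gene was called under any of the 17 alternatives run. Over all genes, where 1 gene was called, the edgeR exact test called 5, the likelihood-ratio test 5 and DESeq2 19; the cause was not tested. Leaving out each library in turn gave 0 to 1 calls, 0 without siNC replicate 1, where Qk, with a log2 fold change of -3.09, had an adjusted p of 0.125 by edgeR's quasi-likelihood test. Without 1 library the fold change of Qk ran from -3.19 to -2.67. The median log2 fold change of the members ran from -0.30 (without siNC replicate 3) to -0.03 (without siNC replicate 2), and 16 to 29 members lay below 0. It was -0.25 without siQk replicate 1 and -0.10 without siQk replicate 2. Without both siNC replicate 3 and siQk replicate 2, an alternative chosen after seeing the data, it was -0.30, with 32 of 34 members below 0. Oas2, at -0.52 with all libraries, had a log2 fold change of -1.76 without siQk replicate 1 and of -0.05 without siQk replicate 2.

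Same-numbered libraries had correlations of their deviations of 0.21, 0.02 and -0.17, above 0.1 for 1 of the 3 numbers, and no label ties a number to a shared culture, so no pairing was assumed. With a replicate block the median of the members was -0.13, 22 members lay below 0 and Qk remained the single call. Under the other scalings and filters the median of the members stayed between -0.17 and -0.13; with total counts it was -0.13 where the median of all genes was 0.03. Of 415 fold changes of members recomputed under alternatives, 35 changed sign, in 15 genes. With 3 libraries a group, and with 16 to 143 reads a library for Oas2, Ifit1 and Ifih1, differences of the size seen between libraries of 1 group are not resolved.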
